A study of Mus musculus with 6 samples.

Results

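The potassium channel genes of mouse stria vascularis endothelial cultures were described here, as the genes whose symbol was Kcn followed by letters and a number. The rule found 92 genes among the 24421 of the counts table. RNA was sequenced from 6 libraries, 1 per culture, with 3 cultures from *Nhe6*-knockout (KO) mice and 3 from wildtype (WT) mice. The KO mice carried a germline deletion of *Nhe6*, so every cell type lacked it. The labels gave C57BL/6N as the background of all 6 samples, whereas the methods of the study named C57BL/6J. Stria vascularis with the spiral ligament, a fibrocyte-rich tissue, was dissected from pups on postnatal day 10 to 12, and tissue of at least 6 mice was pooled for each culture. The endothelial cells were sorted by flow cytometry, grown in endothelial medium with 10% serum, and left untreated. The comparison asked which potassium channel genes differed in RNA level between the genotypes in these cultured cells.

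Potassium channels are membrane proteins that let potassium ions pass down their electrochemical gradient. Voltage-gated channels open on depolarization, inward rectifiers and two-pore-domain channels hold the resting potential, and other channels open when intracellular calcium or sodium rises. Auxiliary subunits line no pore, but change the gating and the surface level of the channels they bind. In the intact stria vascularis, Kcnj10 of the intermediate cells and the Kcnq1 and Kcne1 channel of the marginal cells serve the endocochlear potential and the secretion of potassium into endolymph. In vessels, Kcnj8 with Abcc9 forms the ATP-sensitive channel of mural cells, Kcnma1 with Kcnmb1 forms the large-conductance calcium-activated channel of smooth muscle, and Kcnn3 and Kcnn4 carry the calcium-activated potassium current of endothelium.

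The feature that most of these genes shared, and that the rule on symbols did not use, was the selectivity filter, the short stretch of the pore that coordinates potassium. The longest annotated coding sequence of each gene (GENCODE M21, GRCm38) was translated and searched in frame, on the coding strand, for 3 filter signatures. Threonine, any residue, glycine, tyrosine, glycine was found in 57 of the 92 genes, against 0.537% of 21584 genes searched. The form with phenylalanine in place of tyrosine was found in 17 of the 92 genes (0.57% of all genes), and the form that also had serine in place of threonine in 7 (0.945%). At least 1 of the 3 signatures was present in 73 of the 92 genes, against 1.97% of all genes. All 30 voltage-gated pore subunits, all 10 silent subunits and all 14 two-pore-domain channels held a signature, as did 14 of 15 inward rectifiers and 5 of 12 calcium- and sodium-activated genes. None of the 11 auxiliary subunits of voltage-gated channels held one, and the 11 genes with more than 1 signature were all two-pore-domain channels. The 92 genes are themselves among the 21584 searched, and their symbols name channel families, so these shares are a description and no independent test. These counts describe letters of the coding sequence and say nothing of whether a protein conducts.

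The filter is shown for members that are described below, 1 or more from each kind of pore. Each window is 45 bases of the coding strand, 5′ to 3′, and the capitals mark the 15 bases that encode the 5 residues of the signature.
Kcnd1: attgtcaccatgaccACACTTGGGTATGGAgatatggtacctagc
Kcna2: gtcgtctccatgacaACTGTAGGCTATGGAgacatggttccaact
Kcnh2: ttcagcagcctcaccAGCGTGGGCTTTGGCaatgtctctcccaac
Kcnj3: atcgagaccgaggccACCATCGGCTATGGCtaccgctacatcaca
Kcnj8: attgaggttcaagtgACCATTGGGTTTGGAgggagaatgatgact
Kcnma1: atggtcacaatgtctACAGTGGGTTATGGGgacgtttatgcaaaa
Kcnt1: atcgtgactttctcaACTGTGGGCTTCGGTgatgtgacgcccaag
Kcnk2, pore 1: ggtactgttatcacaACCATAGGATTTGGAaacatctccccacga
Kcnk2, pore 2: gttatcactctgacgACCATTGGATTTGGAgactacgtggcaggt
Kcnh2 had the serine form, whereas Kcnj8, Kcnt1 and both pores of Kcnk2 had the threonine form with phenylalanine. The other genes shown had the threonine and tyrosine form.

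Gene counts ranged from 25587097 to 29126232 per library, and the limit set by a count of 0 (3 counts) was 0.103 to 0.117 CPM (counts scaled to a fixed library total). On the main axis of a principal component analysis, WT replicate 2 lay at 80.1 and the remaining 5 libraries between -20.3 and -6.04. KO replicates 1 and 2 were closer to each other than any other pair (chi-square per degree of freedom of 4.91, against 90.1 to 398), although they differed by more than sampling noise and were counted as 2 cultures. Of the 10 endothelial markers, 9 had a read and 4 (Cdh5, Tek, Emcn and Egfl7) had a mean of at least 100 counts after normalization. Cdh5 had 179 to 232 normalized counts in KO and 2510 to 5200 in WT, and Emcn had 409.7 in WT replicate 2 and 9901 to 18394 in the other cultures. Cldn5 had no read in any library, Pecam1 had at most 8 reads and Tie1 at most 2. The mean of every one of the 7 fibroblast markers was 100 normalized counts or more. Summed fibroblast markers reached 2800 to 3979 TPM (counts per exon length, scaled to a fixed total per library) and the endothelial markers 238 to 567 TPM, so the cultures labelled as endothelial held RNA of some defining endothelial markers and little or none of others. In bulk RNA, fewer cells of a type and less RNA per cell cannot be told apart.

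Potassium channel genes took a small part of the RNA. They held 4873 to 5807 reads per KO library and 4521 to 6671 per WT library, which was 0.0165 to 0.0234% of the gene reads. A read was found for 76 of the 92 genes in at least 1 library, and for 56 to 64 genes in any 1 library. Enough reads for a test were reached by 36 genes, while 40 had reads below the filter and 16 had none. The tested share was highest for the calcium- and sodium-activated genes (7 of 12) and lowest for the silent voltage-gated subunits (2 of 10). It was 13 of 30 for the voltage-gated pore subunits, 6 of 11 for their auxiliary subunits, 4 of 15 for the inward rectifiers and 4 of 14 for the two-pore-domain channels.

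**Figure D1:**
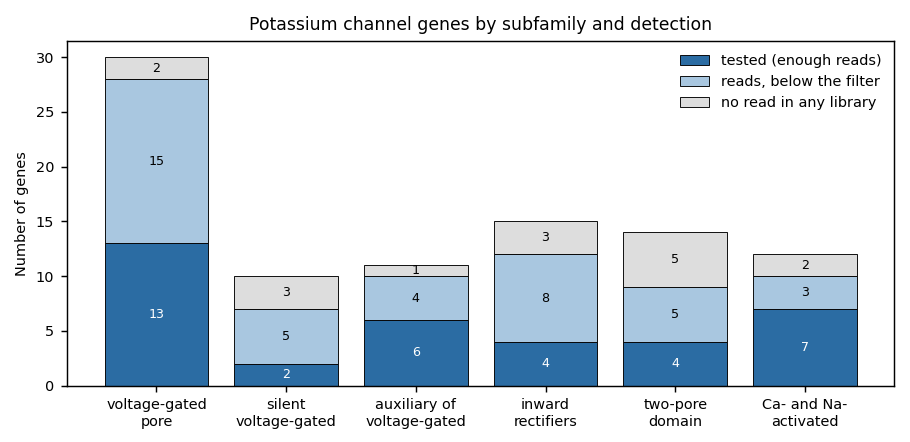
Number of potassium channel genes by kind, divided into genes tested, genes with reads below the filter and genes with no read in any of the 6 libraries. Of 92 genes, 36 were tested, 40 had reads below the filter and 16 had none.

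The channels of the marginal and intermediate cells were at or near 0. Kcne1, the auxiliary subunit of the marginal cell channel, had no read in any library. Its pore partner Kcnq1 had 0, 9 and 1 reads in KO replicates 1, 2 and 3 and 4, 1 and 1 reads in WT replicates 1, 2 and 3. Kcnj10, the inward rectifier of intermediate cells, had 2, 5 and 6 reads in KO and 2, 0 and 5 in WT. Kcnj16, which pairs with Kcnj10 in other epithelia, had 1, 7 and 0 reads in KO and 3, 1 and 20 in WT. None of these 4 genes could be compared between the genotypes at this depth. Among vessel channels, Kcnmb1 had no read, Kcna5 (a voltage-gated channel of vascular smooth muscle) had 3 reads in WT replicate 1 alone, and Kcnk3 (an acid-sensitive two-pore-domain channel) had 1 read in KO replicate 1 and 1 in WT replicate 1.

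Levels of different genes were compared per length, as TPM. The sum over all 92 genes was 142, 149 and 156 TPM in KO and 160, 156 and 168 TPM in WT, with almost no gap between the highest KO and the lowest WT value. That lowest WT value, of WT replicate 2, included 55.3 TPM of Kcne4, without which it lay below every KO culture. The voltage-gated pore subunits and their auxiliary subunits made the greater part of this sum in every culture. The pore subunits summed to 52.5, 54.8 and 70.4 TPM in KO and to 54.1, 38.3 and 68.1 TPM in WT. Auxiliary subunits summed to 41.5, 40.5 and 47.4 TPM in KO and to 45.8, 69.8 and 56.5 TPM in WT, and WT replicate 2 was the highest culture, through Kcne4. The inward rectifiers summed to 10.4 to 16.8 TPM over the 6 cultures, the two-pore-domain channels to 3.38 to 10.0 TPM and the silent subunits to 1.89 to 3.66 TPM. The calcium- and sodium-activated genes ranged from 16.1 to 39.9 TPM, and WT replicate 1 was the highest.

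**Figure D2:**
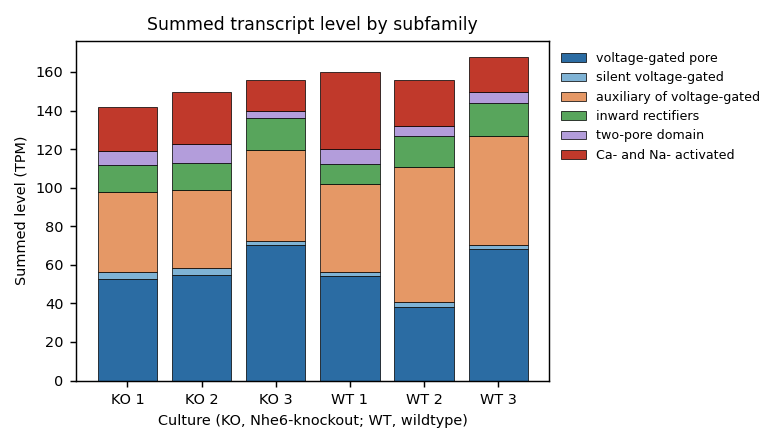
Summed level of the potassium channel genes in each of the 6 cultures, in TPM, stacked by kind of subunit. The totals lie between 142 and 168 TPM, and the auxiliary part is largest in WT replicate 2, at 69.8 TPM.

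The highest mean level belonged to Kcnip3, a calcium-binding subunit of fast-inactivating voltage-gated channels, at 17.6 ± 0.578 TPM in KO and 23.4 ± 15.2 TPM in WT (SD, n = 3). Kcnd1, the pore subunit of such a channel, followed at 12.8, 14.1 and 15.1 TPM in KO and 10.9, 11.3 and 11.1 TPM in WT. The means of Kcnip3 and Kcnd1 differed by less than the SD of Kcnip3 in WT, so this order is a description. Kcnab1, Kcnt1, Kcna6, Kcnc2, Kcnj3 and Kcnt2 also stood among the 10 highest, together with Kcne4, which reached that place through 1 culture.

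**Figure D3:**
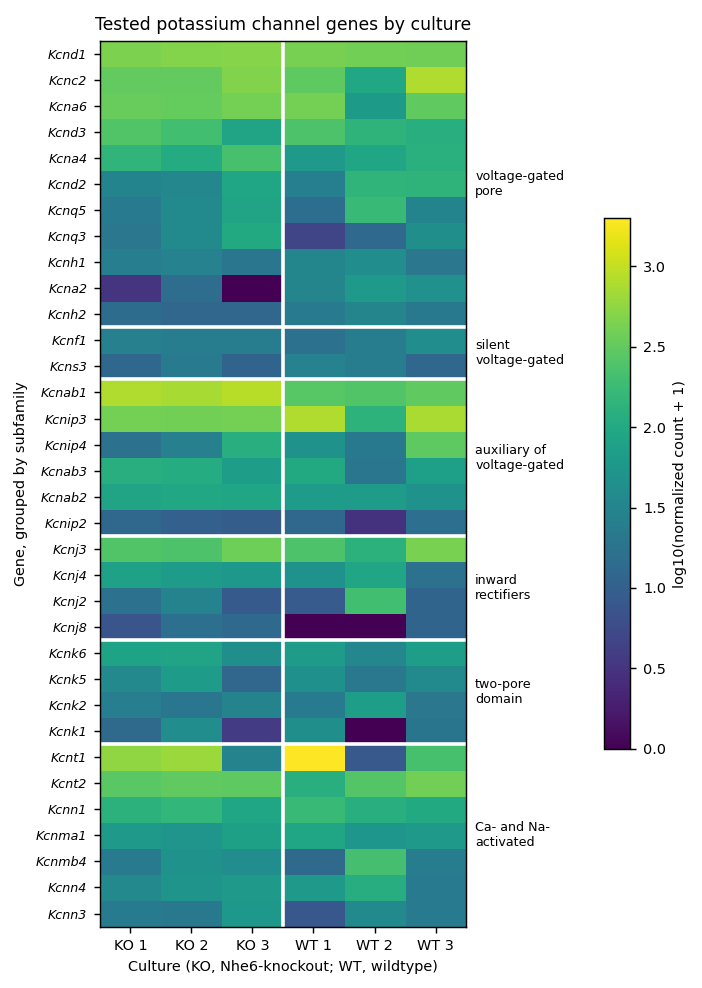
Heat map of 34 of the 36 tested potassium channel genes in the 6 cultures, with color giving the log10 of the normalized count plus 1. WT replicate 2 differs visibly from the other WT cultures in many genes, and Kcnt1 spans 7.22 to 1979 normalized counts within WT.

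No potassium channel gene passed the test between genotypes. Of the 36 tested genes, 0 had an adjusted p under 0.05 by edgeR, against 9 of 13479 genes in all (0.0668%). DESeq2 called 2 of the 36, Kcnab1 among them, beside 4.65% of all genes. Kcnab1 came nearest, with KO levels 2.86-fold those of WT and an adjusted p of 0.0503. An unadjusted p under 0.05 was found for 4 of the 36 genes, against 11.8% of all genes tested. Of these, 1 was higher in KO (6.14% of all genes) and 3 were lower (5.71%). All 3 KO cultures lay above all 3 WT cultures in 3 of the 36 genes (Kcnab1, Kcnab2 and Kcnd1), against 10.3% of all genes. All 3 KO cultures lay below in another 3, Kcna2 and Kcnh2 among them, against 9.57%. The 6 genes without overlap were thus no larger a share of the potassium channel genes than the 19.9% found over all genes. The median log2 fold change (KO over WT) of the 36 genes was -0.08, with 17 genes above 0 and 19 below, and the median over all genes tested was -0.02, with 48.1% above 0. Summed cell cycle markers moved with genotype, at 129 to 229 TPM in KO and 20.9 to 38.4 TPM in WT, although none of these 6 markers passed the test in edgeR (all 6 had an unadjusted p under 0.05), and their part in the values of the potassium channel genes was not tested. With 3 cultures against 3, the smallest exact two-sided permutation p is 0.1, so single genes were not given one. The p-values measure the spread between these cultures of pooled tissue, and which mice went into which culture was not given.

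**Figure D4:**
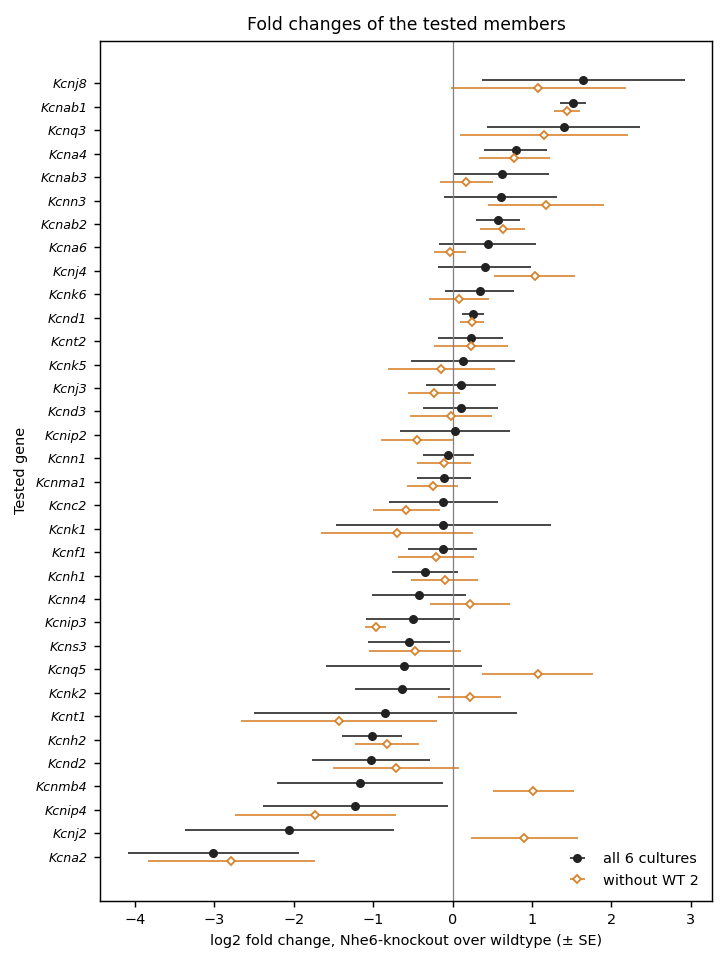
Log2 fold change (KO over WT) of 34 of the 36 tested potassium channel genes with standard errors, from all 6 cultures (black) and without WT replicate 2 (orange). Values range from -3.01 (Kcna2) to 1.65 (Kcnj8), and several genes, among them Kcnj2 and Kcnq5, cross 0 when that culture is left out.

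Kcnab1 (chromosome 3, 65109384 to 65378223, GRCm38) encodes a cytoplasmic beta subunit with an oxidoreductase fold, which speeds the inactivation of shaker-type channels. Its normalized counts were 794, 722 and 884 in KO replicates 1, 2 and 3 and 276, 251 and 311 in WT replicates 1, 2 and 3. Every KO culture was more than 2 times as high as every WT culture, and WT replicate 2 lay close to the other WT cultures for this gene. The means were 800.3 ± 81.2 in KO and 279 ± 30.5 in WT (SD, n = 3), a log2 fold change of 1.52 with a standard error of 0.16. The unadjusted p was 5.30e-05 in the edgeR model, rank 13 among all genes tested. Over 14 alternatives in processing or libraries the log2 fold change stayed between 1.43 and 1.60, while the adjusted p ranged from 9.83e-13 to 0.398. It passed the threshold in 4 of them, with an adjusted p of 9.83e-13 by DESeq2 and of 0.0227 by edgeR without WT replicate 2. Without that culture edgeR called 2.88% of all genes. With KO replicates 1 and 2, the closest pair of libraries, summed, its adjusted p was 0.398, and without KO replicate 1 it was 0.396 (edgeR). The KO and WT means were 14.5 ± 1.80 and 4.81 ± 0.621 TPM. An antisense gene that overlaps Kcnab1, A330015K06Rik, had 3 to 9 reads per library.

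The other beta subunits were lower in level and not called. Kcnab2 (chromosome 4, 152390742 to 152477871) had 83.9, 91.1 and 88.0 normalized counts in KO and 65.5, 64.0 and 47.1 in WT, without overlap. Its log2 fold change was 0.57 with a standard error of 0.28 (adjusted p = 0.482). An exon of Kcnab2 overlaps Gm16334 on the same strand. Kcnab3, the third beta subunit, overlapped between genotypes at 70.1 to 116 normalized counts in KO and 18.6 to 101 in WT, with WT replicate 2 the lowest (log2 fold change 0.62, standard error 0.60).

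Kcnip3 (chromosome 2, 127456498 to 127522094) had nearly equal levels in KO, at 399, 397 and 404 normalized counts, whereas the WT cultures had 809.8, 135 and 751. WT replicate 2 lay below all KO cultures, and the other WT cultures lay above them. With all 6 cultures the log2 fold change was -0.50 with a standard error of 0.60 (adjusted p = 0.806). Without WT replicate 2 it was -0.97 with a standard error of 0.13, and the adjusted p of 0.0300 passed the threshold, so this call rests on leaving that culture out. The part of WT replicate 2's departure in this result was measured in that way only, and its cause was not tested. Kcnip4, a related subunit, had a log2 fold change of -1.22 with a standard error of 1.16, and Kcnip2 was at 0.03.

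Kcne4 (chromosome 1, 78816758 to 78820028), a single-pass subunit that inhibits several voltage-gated channels, did not reach the filter and was not tested. It had 0, 2 and 9 reads in KO and 2, 943 and 1 in WT. WT replicate 2 alone held nearly all of its reads. Part of the mural markers moved with it. Their summed level was 1824 TPM in WT replicate 2, against 406 and 520 TPM in the other WT cultures and 613 to 767 TPM in KO. Acta2, the smooth muscle actin, had 16275 normalized counts there and 29.3 to 1204 in the other 5 cultures, and Tagln and Cspg4 were also highest there. Other mural markers were not: Pdgfrb (7794), Rgs5 (29.9) and Des (4.13 normalized counts) had their lowest level in WT replicate 2. The pattern was not confined to mural markers. Col1a1, a fibroblast marker, had 27188 normalized counts in WT replicate 2 and 207 to 1228 elsewhere, and Col1a2 was also highest there. The remaining fibroblast markers (Col3a1, Pdgfra, Dcn, Lum and Fbln1) had their lowest level in that culture. Kcna2, Kcnh2, Kcnd2, Kcnj2, Kcnq5, Kcnk2, Kcnn4 and Kcnmb4 also had their highest level in that culture, at values given with the other channels. The part of mural or fibroblast RNA in these levels was not tested.

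**Figure D5:**
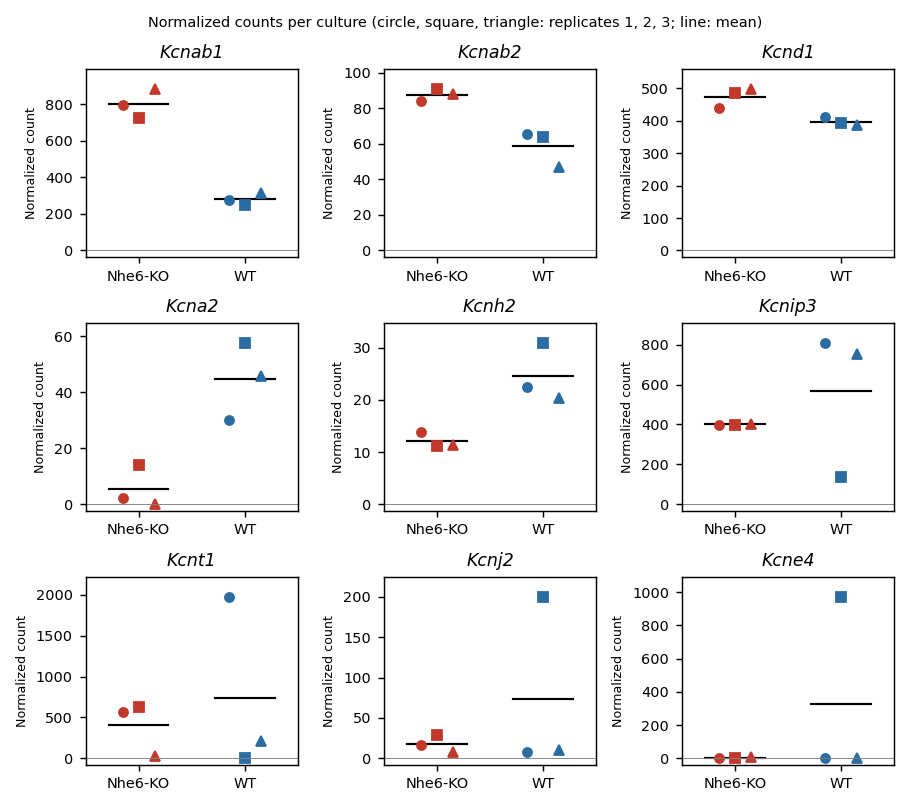
Normalized counts of 9 potassium channel genes in each culture, with 1 panel per gene, points for cultures (circle, square and triangle for replicates 1, 2 and 3) and a line at the mean of each genotype. Kcnab1, Kcnab2, Kcnd1, Kcna2 and Kcnh2 show no overlap between genotypes, whereas Kcnip3, Kcnt1, Kcnj2 and Kcne4 are spread widely within WT.

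Among the 13 tested pore subunits of voltage-gated channels, 6 had a log2 fold change above 0 and 7 below, with a median of -0.11. Over all genes tested the median was -0.02, with 48.1% above 0. The 3 genes with an unadjusted p under 0.05 (edgeR) were all lower in KO, against 5.71% of all genes tested. They are the same 3 lower genes already counted among the 36. Exons of 15 of the 36 tested genes overlap another gene, in 14 of them on the opposite strand. Reads of such antisense pairs cannot be told apart where they share exons unless the counting used strand, which was not stated.

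Kcna2 (chromosome 3, 107101146 to 107115005), a shaker-type channel of axons and of vascular smooth muscle, was low in every culture. Its normalized counts were 2.12, 13.9 and 0 in KO and 30.3, 57.8 and 46.0 in WT, so that KO replicate 3 held no read. The log2 fold change was -3.01 with a standard error of 1.08 (adjusted p = 0.351). Over the alternatives that kept the gene it lay between -5.29 and -2.45, and in none of them did the gene pass the threshold. Kcnh2 (chromosome 5, 24319589 to 24351604), the rapid delayed rectifier of the heart, was also low, at 13.8, 11.2 and 11.4 normalized counts in KO and 22.5, 31.0 and 20.3 in WT. Its log2 fold change was -1.02 with a standard error of 0.38 (adjusted p = 0.370).

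Kcnd1 (chromosome X, 7822289 to 7838280), the only gene on that chromosome that the rule on symbols found, had 441, 484 and 499 normalized counts in KO and 413, 394 and 386 in WT. The cultures of each genotype lay close together and the genotypes did not overlap. The difference was small, with a log2 fold change of 0.26, a standard error of 0.14 and an adjusted p of 0.537. Kcna4, another fast-inactivating shaker-type channel, had 144, 107 and 219.6 normalized counts in KO and 59.7, 88.8 and 123 in WT, with overlap (log2 fold change 0.79, standard error 0.40, adjusted p = 0.496). Kcnd2, a relative of Kcnd1, had 29.7, 32.5 and 87.1 in KO and 25.4, 142 and 138 in WT, and overlapped as well (log2 fold change -1.03, adjusted p = 0.660).

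The slowly activating Kcnq3 and Kcnq5 overlapped between genotypes. Kcnq3 had 19.1, 36.2 and 100.3 normalized counts in KO and 3.91, 12.4 and 42.8 in WT (log2 fold change 1.40, standard error 0.96, adjusted p = 0.642). Kcnq5, a channel of vascular smooth muscle, had 21.2, 35.3 and 84.3 in KO and 14.7, 170.3 and 29.96 in WT. Its log2 fold change was -0.61 with all cultures and 1.07 without WT replicate 2, so its direction rested on that library. Kcna6 and Kcnc2, a shaker-type channel and a fast delayed rectifier, were lowest in WT replicate 2, at 61.9 and 94.9 normalized counts, where the other cultures had at least 307 and 299 respectively. Neither differed between genotypes beyond this spread (adjusted p = 0.835 and 0.963, edgeR).

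Of the inward rectifiers, 4 were tested and none was called. Kcnj3, a subunit of G-protein-gated channels, was the highest, with 255, 234 and 368 normalized counts in KO and 239.6, 129 and 428 in WT (log2 fold change 0.11, standard error 0.44). Kcnj8, the pore of the vascular ATP-sensitive channel, had 6, 16 and 13 reads in KO and 0, 0 and 10 in WT. Its log2 fold change of 1.65 had a standard error of 1.28 (adjusted p = 0.676) and rested on few reads. Leaving out WT replicate 3, the only WT culture with a read, put that value at 6.52, which is no estimate of size because the remaining WT cultures were at 0. Kcnj2, the classical inward rectifier of endothelium and muscle, had 15.9, 28.8 and 7.57 normalized counts in KO and 7.82, 200.2 and 10.7 in WT. Its log2 fold change was -2.05 with all cultures (adjusted p = 0.610) and 0.90 without WT replicate 2 (adjusted p = 0.521). WT replicate 2 therefore set its direction, as it did for Kcnq5.

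Of the 4 tested two-pore-domain channels, 2 had a log2 fold change above 0 and 2 below, in a range of -0.63 to 0.34. Kcnk6, a background channel of vessels and epithelia, had 80.7, 83.6 and 42.6 normalized counts in KO and 62.6, 33.0 and 67.4 in WT (adjusted p = 0.815). Kcnk2, a mechanosensitive channel of endothelium and neurons, had 24.4, 18.6 and 28.4 in KO and 21.5, 70.2 and 19.3 in WT. WT replicate 2 was again the culture that stood apart, and the log2 fold change of -0.63 (adjusted p = 0.746) was 0.22 without it.

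The calcium- and sodium-activated genes had a median log2 fold change of -0.11, with 2 of 7 above 0. Over all genes tested these were -0.02 and 48.1%. Kcnt1 (chromosome 2, 25863734 to 25918273), a sodium-activated channel, spanned the widest range of them, with 562, 633 and 28.4 normalized counts in KO and 1979, 7.22 and 214 in WT. KO replicates 1 and 2 were alike and KO replicate 3 was low, while the WT cultures differed from each other by more than 9 times. The log2 fold change of -0.85 had a standard error of 1.66 (adjusted p = 0.887) and was 1.88 without WT replicate 1. Its relative Kcnt2 was even in KO (287, 306 and 299) and uneven in WT (117, 256 and 387), with an adjusted p of 0.876.

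Among the calcium-activated channels of vessels, Kcnma1 had the most even levels. It had 59.5, 51.1 and 73.8 normalized counts in KO and 87.0, 52.6 and 58.9 in WT (log2 fold change -0.11, standard error 0.34, adjusted p = 0.937). Kcnn4, the intermediate-conductance channel, had 35.1, 50.2 and 60.6 in KO and 60.6, 112 and 22.5 in WT. Kcnn3, the small-conductance channel, had 22.3, 20.4 and 56.8 in KO and 6.85, 36.1 and 22.5 in WT. Both overlapped between genotypes (adjusted p = 0.842 and 0.799, edgeR). Kcnmb4, a beta subunit of Kcnma1, was highest in WT replicate 2, at 213 normalized counts against 12.7 to 47.4 elsewhere.

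The spread within a genotype was wide for potassium channel genes. In WT, the highest culture was more than 3 times the lowest in 21 of the 36 genes (58.3%), against 17.6% of all genes tested. In KO this held for 9 genes (25%), against 4.56%. The potassium channel genes were low, with a median of 62.7 normalized counts against 726 over all genes. Among genes with at least 100 normalized counts, 7 of 13 potassium channel genes (53.8%) passed that ratio in WT, against 11.6% of all such genes. In KO, 2 (15.4%) did, against 1.71%. This cut did not match the levels, as the 13 had a median of 306 normalized counts, against 1010 for all such genes. WT replicate 2 was the culture farthest from the median of all 6 in 19 of the 36 genes (52.8%), against 36.3% of all genes. Without WT replicate 2, edgeR called 2 of the tested potassium channel genes, Kcnab1 and Kcnip3, beside 2.88% of all genes.

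Subunits, partners and regulators of potassium channels whose symbols the rule did not match were taken as a list of 24 genes. Of these, 15 were tested, the antisense RNA Kcnq1ot1 among them, and 0 were called by edgeR, against 0.0668% of all genes. An unadjusted p under 0.05 was found for 4 of the 15, against 11.8% of all genes, 1 higher (6.14%) and 3 lower (5.71%). Abcc9, the sulfonylurea receptor that forms a channel with Kcnj8, had 233, 208 and 149.6 normalized counts in KO and 38.1, 3.10 and 76.0 in WT. The genotypes did not overlap, and the log2 fold change was 2.33 with a standard error of 0.89 (adjusted p = 0.385). All 3 KO cultures also lay above all 3 WT cultures in 4 of the 8 mural markers, against 10.3% of all genes. These 4 (Pdgfrb, Rgs5, Notch3 and Des) had log2 fold changes of 0.51, 1.04, 1.24 and 1.74, with no call by edgeR. The other 4 (Acta2, Tagln, Cspg4 and Myh11) overlapped between genotypes, with log2 fold changes of -3.14, -2.02, -1.27 and -0.23. The part of mural RNA in the Abcc9 level was not tested. Abcc8, the other sulfonylurea receptor, had no read. Amigo1, a membrane protein that binds delayed rectifiers, was lower in KO with a log2 fold change of -0.61 and a standard error of 0.18, and Vamp2 had one of -0.43 with a standard error of 0.18 (adjusted p = 0.268 and 0.420, edgeR). Cav1, the caveolar protein that holds channels in caveolae, had 4389, 4301 and 4467 in KO and 15289, 6820 and 22246 in WT (log2 fold change -1.75, standard error 0.41, adjusted p = 0.162). It passed the threshold by DESeq2 (adjusted p = 9.73e-04) and by edgeR without WT replicate 2 (adjusted p = 0.0140).

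Pumps with their regulators, cotransporters and Hcn channels that move potassium were taken as a list of 23 genes, of which 15 were tested. Of these, 0 were called by edgeR, against 0.0668% of all genes. The log2 fold change was below 0 in 13 of the 15 and above 0 in 2, against 48.1% of all genes above 0. An unadjusted p under 0.05 was found for 3, against 11.8% of all genes, and all 3 were lower in KO (5.71%). DESeq2 called 1 of the 15, beside 4.65% of all genes, and edgeR without WT replicate 2 called 3, beside 2.88%. Among the latter were the pump subunits Atp1b2 and Atp1b3, with log2 fold changes of -1.27 and -1.07 (adjusted p = 0.0239 and 0.0229) in that fit and -0.80 and -0.74 with all 6 cultures (adjusted p = 0.665 and 0.476). Slc12a2, the sodium, potassium and chloride cotransporter of marginal cells, had 2851, 2671 and 2837 normalized counts in KO and 4359, 9960 and 3467 in WT, with WT replicate 2 the highest. Its log2 fold change was -1.09 with a standard error of 0.39 (adjusted p = 0.360), and -0.49 with a standard error of 0.13 without WT replicate 2. Fxyd5, a regulator of the pump, had a log2 fold change of -0.54 with a standard error of 0.21 (adjusted p = 0.392).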

How the data were processed

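The authors prepared poly(A)-enriched stranded libraries, sequenced with 75 cycles. The submitters' processing notes list bcl2fastq 2.20.0.422, STAR 2.7.7a, HTSeq 0.13.5, DESeq2 1.26.0 and mm10, and the annotation and strand setting were not given in the sources used here. The deposited values are raw counts of reads per gene symbol, and the summary lines of unassigned reads (22.2% of the table) were left out. Genes were filtered (filterByExpr, minimum count 10), normalized by TMM and the genotypes compared in edgeR 4.0.16 (R 4.3.3) by its quasi-likelihood test, with Benjamini-Hochberg adjustment over 13479 genes and a threshold of 0.05. The fit had genotype as its only term. The standard error is the log2 fold change divided by the square root of F. Normalized counts are scaled to the mean library size. TPM used exon lengths of GENCODE M21. DESeq2 1.42.0, limma-voom 3.58.1, other filters and normalizations, a replicate block, the sum of KO replicates 1 and 2, and leaving out each library were alternatives. The scripts were tested on simulated data.

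Genes named with values were those past the threshold, those without overlap and at least 100 normalized counts, the 5 smallest unadjusted p in each direction, the 10 highest by TPM, and members fixed for their place in the lateral wall or vessels. Kcnip2, Kcnip4, Kcnab3, Kcnmb4, Atp1b2 and Atp1b3 were named after their values were seen. Some genes that met these rules, and the targeted gene, are not reported here. The members and lists were chosen with earlier results of these data known.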

Additional observations from a re-analysis of the deposited data

How the results depend on the processing

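Over the 14 alternatives, as far as each kept the gene, 11 of the 22 tested genes named by rule kept their direction, and the median log2 fold change of the potassium channel genes (-0.08 as reported) ranged from -0.11 to 0.21. It lay above 0 by limma-voom (0.13), without WT replicate 1 (0.17) and without WT replicate 3 (0.21), moves below 0.32, the larger SD within a genotype of the median log2 level per culture. The number called, 0 as reported, was 1 without a filter and 1 with at least 10 counts in every library, 2 by DESeq2, and 0 to 2 when each library was left out (2 without WT replicate 2). All genes called, 9 as reported, were 21 with either of those filters, 627 by DESeq2, 2 with the replicate block, 1 with KO replicates 1 and 2 summed, and 0 to 395 when each library was left out, with 395 without WT replicate 2. Genes without overlap were 6 as reported and 7 to 15 with a library less, where fewer cultures overlap less often. DESeq2 called 1 channel partner and 1 transport gene, and leaving out libraries gave 0 to 1 and 0 to 3, the higher values without WT replicate 2. By limma-voom the log2 fold changes of Kcnc2 and Kcnt1 were 0.36 and 0.48, above 0, and with the replicate block that of Kcnc2 was 0.31. Leaving out 1 library turned the direction of 11 genes, whose log2 fold changes then ranged from -0.58 to 0.88 (Kcnc2), -1.43 to 1.88 (Kcnt1), -2.63 to 0.90 (Kcnj2), -1.34 to 1.07 (Kcnq5), -0.95 to 0.22 (Kcnk2), -0.84 to 0.22 (Kcnn4), -0.27 to 0.14 (Kcnma1), -0.23 to 0.63 (Kcnj3), -0.036 to 1.18 (Kcnn3), -0.12 to 0.66 (Kcnt2) and -0.027 to 0.93 (Kcna6). The cause was not tested. The deviations of same-numbered cultures had correlations of mixed sign (0.251, -0.132 and 0.168), so the number was not taken to pair them. With so few cultures this check cannot exclude a pairing. The best correlation was with the own number for 3 of 6 cultures, and no potassium channel gene was called under the block (Kcnab1, adjusted p = 0.0815, edgeR). Depth limited the 40 genes with reads below the filter, for which no difference was detectable.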

Other observations

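The pattern for symbols left out 6 transcripts whose symbols begin with Kcn. Kcnq1ot1, the antisense RNA of the Kcnq1 locus, had 691, 601 and 617 normalized counts in KO and 589, 699.7 and 959 in WT, while Kcnq1 itself had at most 9 reads in any library (log2 fold change of Kcnq1ot1 -0.23, adjusted p = 0.73, edgeR). Kcng1, a silent subunit that did not reach the filter, had 48, 46 and 5 reads in KO and 6, 1 and 4 in WT. It was picked out after its values were seen, and KO replicates 1 and 2, the closest pair of libraries, held most of its reads.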
